A study of Homo sapiens with 4 samples.

Results

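The genes examined here form the G1 checkpoint of the cell cycle. They are the D-type cyclin genes CCND1, CCND2 and CCND3, the kinase genes CDK4 and CDK6, the CDK inhibitor genes CDKN1A, CDKN1B, CDKN2A and CDKN2B, and the retinoblastoma gene RB1. They were chosen by name, and a gene was read from the probesets whose platform annotation names that gene alone, taking the brightest by its mean over the arrays. All 10 had such a probeset, 1 each, among 22465 genes named on the array. Of these 10, 8 reached a mean log2 signal of 4.035, the median over all probesets, as did 14418 of the named genes. CDKN2A and CDKN2B did not.

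The arrays came from SUM159 and MDA-MB-231, established lines from triple-negative breast cancer, each stably transduced with Ptripz-mir100, a lentiviral plasmid that expresses miR-100 when a tetracycline-type drug is added. Each line was compared after 1 week with the drug (induced) and without it (control), on 1 array per line and state and therefore 4 arrays in all, to ask what follows miR-100 overexpression. All 4 groups carried the plasmid and had been selected in puromycin, and no array held drug-treated cells without the miR-100 plasmid, so the drug and the microRNA cannot be told apart. SUM159 cells were grown in Ham's F12 medium with hydrocortisone and insulin and MDA-MB-231 cells in DMEM, so line and medium cannot be told apart either. The study's design text writes SUM149 where the sample labels write SUM159, and the labels are followed. Nothing in the labels says that the arrays came from separate cultures.

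D-type cyclins bind CDK4 and CDK6, and the active kinases phosphorylate the retinoblastoma protein, which then releases E2F transcription factors that switch on genes of DNA synthesis. The INK4 proteins, p16 from CDKN2A and p15 from CDKN2B, bind CDK4 and CDK6 and keep the cyclins off. The CIP/KIP proteins, p21 from CDKN1A and p27 from CDKN1B, inhibit cyclin E-CDK2 and also take part in the assembly of cyclin D complexes. The region that holds CDKN2A and CDKN2B is among those most often deleted or silenced in cancer.

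The sequences below show the induced microRNA and the promoters that the kinase and INK4 results refer to, as RefSeq gives them for GRCh38.p14. In the mature products of MIR100, which lies on chromosome 11, minus strand, at chr11:122152275-122152296 for the 5p arm and chr11:122152240-122152261 for the 3p arm, capitals mark the seed, bases 2 to 8. The 5p seed is shared by 3 mature human microRNAs of the table, miR-100-5p, miR-99a-5p and miR-99b-5p.
hsa-miR-100-5p: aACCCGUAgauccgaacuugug
hsa-miR-100-3p: cAAGCUUGuaucuauagguaug

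Promoters were read from 250 bases before to 50 bases after a transcript start, and 8 of the 10 genes matched the table, with 12 starts. They were searched on both strands for CACGTG (the E-box bound by MYC and related factors), GGGCGG (the GC box), TTTNNCGC (an E2F-like motif), TGACGTCA (the cyclic AMP response element) and TATAAA, and capitals mark the matches. Of 35116 promoters of this length, 7.26% held CACGTG, 45.0% GGGCGG, 6.89% TTTNNCGC, 1.85% TGACGTCA and 11.5% TATAAA. The promoters of both kinase genes lie on minus strands, that of CDK4 at chr12:57752261-57752560 and the upstream one of CDK6 at chr7:92836524-92836823. The CDK4 window holds CACGTG 3 times and GGGCGG 3 times, and the CDK6 window holds CACGTG 1 time and GGGCGG 3 times. The downstream start of CDK6, at chr7:92833910-92834209 and not printed, holds 0 matches to any of the motifs. The matches are matches of letters and not evidence of binding.
CDK4 promoter: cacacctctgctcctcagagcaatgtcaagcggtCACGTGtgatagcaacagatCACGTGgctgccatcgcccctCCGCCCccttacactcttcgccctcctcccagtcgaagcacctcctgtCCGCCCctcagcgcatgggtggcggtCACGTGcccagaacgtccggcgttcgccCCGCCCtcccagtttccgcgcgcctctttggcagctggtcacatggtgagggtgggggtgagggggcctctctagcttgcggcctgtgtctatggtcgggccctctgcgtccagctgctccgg
CDK6 promoter: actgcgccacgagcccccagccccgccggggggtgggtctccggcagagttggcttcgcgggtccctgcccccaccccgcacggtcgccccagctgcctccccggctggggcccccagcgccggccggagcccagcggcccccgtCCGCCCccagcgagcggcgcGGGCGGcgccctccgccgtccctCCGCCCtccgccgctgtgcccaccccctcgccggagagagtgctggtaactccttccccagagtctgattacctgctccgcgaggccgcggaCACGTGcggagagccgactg

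CDKN2A has a pair of starts in the table. The upstream start, at chr9:21995275-21995574, is that of the transcript for the p14ARF protein, and the downstream start, at chr9:21974808-21975107, is that of the transcript for p16. The start of CDKN2B lies at chr9:22009256-22009555, and all of these are on the minus strand. The p16 window and the CDKN2B window each hold GGGCGG 2 times, and the p14ARF window holds 0 matches to the motifs searched. The array carries 1 probeset for CDKN2A, so its signal does not tell p16 from p14ARF transcripts.
CDKN2A promoter, p14ARF start: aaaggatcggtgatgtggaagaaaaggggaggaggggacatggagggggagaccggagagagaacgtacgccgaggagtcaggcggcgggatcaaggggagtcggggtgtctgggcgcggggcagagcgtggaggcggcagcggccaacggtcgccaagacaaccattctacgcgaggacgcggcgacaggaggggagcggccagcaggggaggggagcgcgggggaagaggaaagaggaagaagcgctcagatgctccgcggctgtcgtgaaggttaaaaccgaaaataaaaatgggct
CDKN2A promoter, p16 start: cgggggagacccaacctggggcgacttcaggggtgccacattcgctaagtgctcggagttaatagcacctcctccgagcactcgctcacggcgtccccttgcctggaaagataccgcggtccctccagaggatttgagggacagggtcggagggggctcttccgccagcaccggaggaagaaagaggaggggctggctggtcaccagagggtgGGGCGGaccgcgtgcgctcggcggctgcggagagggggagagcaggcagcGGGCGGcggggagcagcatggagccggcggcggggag
CDKN2B promoter: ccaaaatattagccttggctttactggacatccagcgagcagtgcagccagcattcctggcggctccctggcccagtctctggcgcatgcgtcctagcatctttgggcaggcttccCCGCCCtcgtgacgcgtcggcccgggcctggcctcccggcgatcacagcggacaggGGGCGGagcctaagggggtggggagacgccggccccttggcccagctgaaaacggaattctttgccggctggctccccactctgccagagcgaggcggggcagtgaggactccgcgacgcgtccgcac

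The induction and the lines were checked first. On the log2 scale the MIR100 probeset read 6.56 without and 18.18 with the drug in SUM159, and 8.11 and 17.29 in MDA-MB-231, so the arrays labelled induced match their label. This signal does not separate mature miR-100 from the transcript of the construct. ESR1 and PGR, the hormone receptor genes that triple-negative cells lack, lay at 2.98 to 3.68 on the 4 arrays, below the cutoff. ERBB2 had no probeset of its own and was not read. The mesenchymal genes VIM (15.20 to 16.23), FN1 (11.63 to 15.57) and ZEB1 (11.14 to 11.50) were above the cutoff. So were the epithelial genes KRT8 (11.84 to 13.37), KRT18 (10.31 to 11.85) and EPCAM (4.55 to 6.16), while KRT5, KRT14 and CDH1 had mean signals under it. The blood and endothelial genes PTPRC, PECAM1 and CDH5 had mean signals under the cutoff, and CD3E lay at 4.16 to 4.56, near it.

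Cyclin D1 and cyclin D2 transcripts were higher in both induced lines, and cyclin D3 transcripts were lower in both. CCND1 had log2 signals of 14.26 (control) and 14.53 (induced) in SUM159 cells, and of 14.55 and 15.00 in MDA-MB-231 cells. The SUM159 difference was 0.27 and the MDA-MB-231 difference 0.45, that is 1.21 and 1.37 times the control level. Both MDA-MB-231 arrays were above both SUM159 arrays, although the MDA-MB-231 control (14.55) and the induced SUM159 array (14.53) nearly met. Between the control arrays of the lines, 64.3% of kept genes differed at least as far as CCND1. The arrays read RNA from whole cultures, so a shift in some cells and a smaller shift in all cells cannot be told apart. After quantile normalization of the arrays the SUM159 difference of CCND1 was 0.14.

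CCND2 stood at 8.61 (control) and 9.17 (induced) in SUM159 cells, and at 4.77 and 5.21 in MDA-MB-231, where it lay close to the cutoff. Its differences, 0.56 and 0.44, were nearly alike on the log2 scale although the levels were far apart. In SUM159 it stayed just inside the 1.5-fold threshold (0.585 on the log2 scale), and 7.99% of kept genes differed at least as far in either direction. The corresponding share for its MDA-MB-231 difference was 7.60%, and for that of CCND1 it was 7.12%.

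CCND3 stood at 5.63 and 5.46 in control and induced SUM159 cells and at 6.68 and 6.38 in MDA-MB-231. Its differences were -0.17 and -0.30, within the range that 50.1% and 19.6% of kept genes matched or exceeded. The SUM159 differences of CCND1 and CCND3 lay under the spread of kept genes of like signal, 0.28 and 0.22. Their MDA-MB-231 differences were larger than that spread, 0.19 for each gene. Those of CCND2 were larger than it in SUM159 (0.27) and MDA-MB-231 (0.21).

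**Figure D1:**
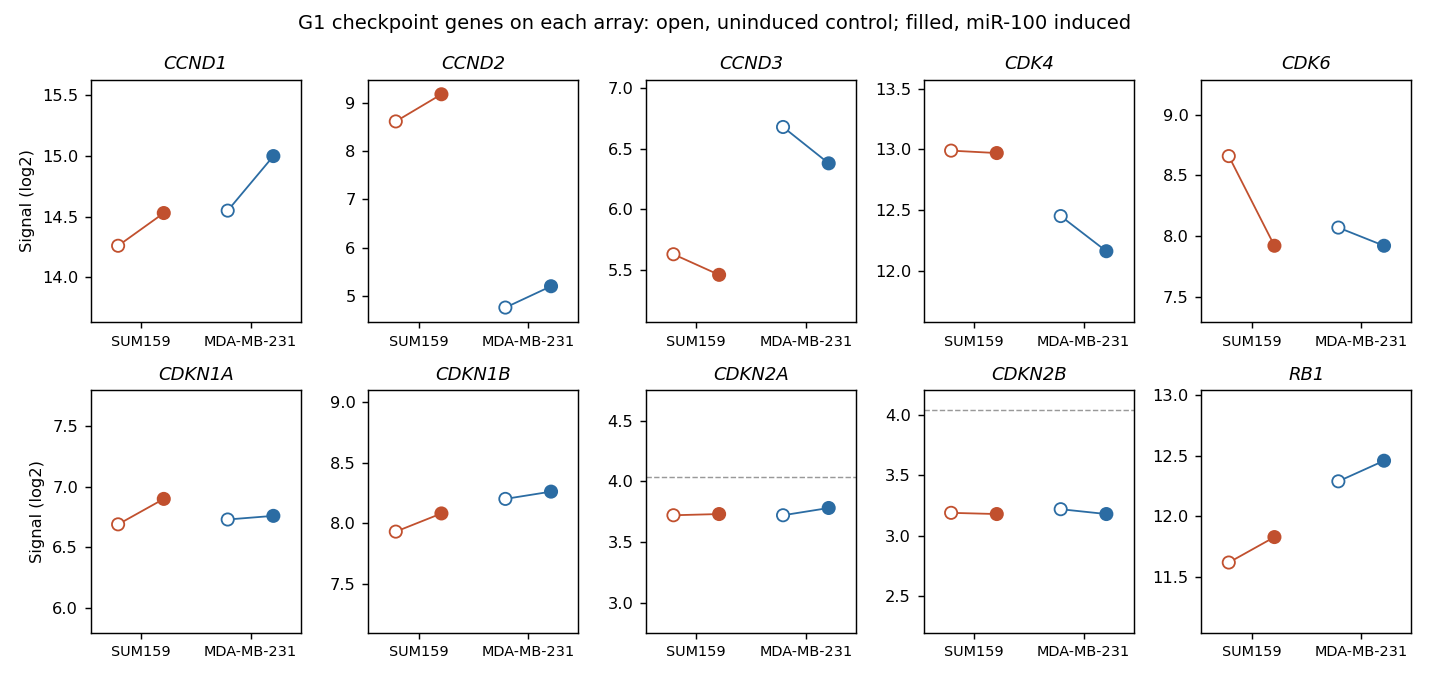
Log2 signal of each gene on the 4 arrays, 1 panel per gene with its own vertical axis; open points are control and filled points induced cells, joined within SUM159 (left, orange) and MDA-MB-231 (right, blue), and the dashed line is the signal cutoff of 4.035. CDK6 drops from 8.66 to 7.92 in SUM159, CCND2 lies near 9 in SUM159 and near 5 in MDA-MB-231, and CDKN2A and CDKN2B stay flat under the cutoff.

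CDK6, which encodes the kinase partner of the D cyclins, close in sequence and function to CDK4, had the largest difference of the 10 genes. Its signal was 8.66 before and 7.92 after induction of SUM159 cells, a difference of -0.74 or 0.599 times the control level. In MDA-MB-231 it was 8.07 in control and 7.92 in induced cells, a difference of -0.15. Control SUM159 cells were the high sample, and the other 3 arrays lay within 0.15 of each other. The SUM159 difference minus the MDA-MB-231 difference was -0.59, which cannot be tested with 1 array per state.

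CDK6 was the 1 kept member past 1.5-fold in SUM159, where 6.95% of all kept genes passed that threshold in one direction or the other. In MDA-MB-231 0 members passed it, against 2.48% of kept genes. Among the 1631 kept genes within 0.5 log2 units of the mean signal of CDK6, the spread of the SUM159 differences (SD from the median absolute deviation) was 0.28. Of kept genes, 3.56% differed in SUM159 at least as far as CDK6, in either direction.

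CDK4 encodes the other cyclin D kinase. It stood at 12.99 and 12.97 in control and induced SUM159 cells and at 12.45 and 12.16 in MDA-MB-231. The difference was -0.02 in SUM159, which 94.7% of kept genes exceeded or matched, and -0.29 in MDA-MB-231. After quantile normalization these were -0.16 and -0.36, both still downward. SUM159 lay above MDA-MB-231 in both states, and 46.3% of kept genes differed at least as far between the control arrays of the lines.

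**Figure D2:**
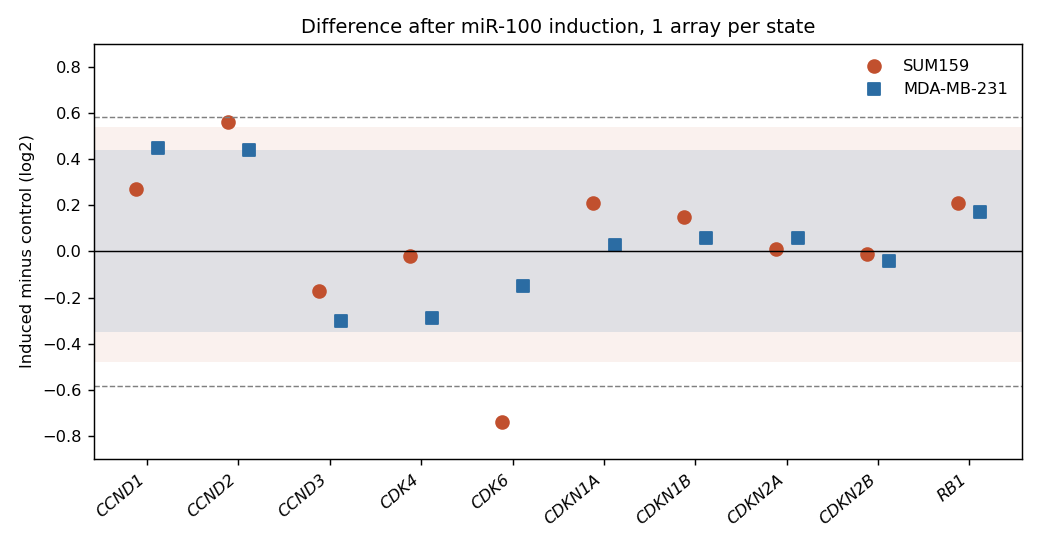
Induced minus control log2 difference of each gene in SUM159 (orange circles) and MDA-MB-231 (blue squares), 1 array per state and therefore no error bars; dashed lines mark 1.5-fold, and the shaded bands hold the middle of all kept genes, from their 5th to their 95th percentile (orange, -0.48 to 0.54 in SUM159; blue, -0.35 to 0.44 in MDA-MB-231). CDK6 in SUM159, at -0.74, is the point outside the dashed lines, and each gene's pair of points lies on the same side of 0.

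The CIP/KIP inhibitor genes differed little after induction. CDKN1A, a main transcriptional target of p53, stood at 6.69 and 6.90 in control and induced SUM159 cells and at 6.73 and 6.76 in MDA-MB-231. The differences were 0.21 and 0.03, and the 4 arrays lay within 0.21 of each other. CDKN1B stood at 7.93 and 8.08 in SUM159 and at 8.20 and 8.26 in MDA-MB-231, with differences of 0.15 and 0.06. Of kept genes, 41.4% and 90.1% differed at least as far as CDKN1A in SUM159 and MDA-MB-231, and 55.0% and 78.3% at least as far as CDKN1B.

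The INK4 genes gave no signal above the cutoff on any array. CDKN2A lay at 3.72 and 3.73 in SUM159 and at 3.72 and 3.78 in MDA-MB-231, where 39.7% of all probesets had a dimmer mean. CDKN2B lay at 3.19 and 3.18 in SUM159 and at 3.22 and 3.18 in MDA-MB-231, with 14.0% of probesets dimmer. The whole range over the 4 arrays was 0.06 for CDKN2A and 0.04 for CDKN2B, under the spread of 0.19 (SUM159) and 0.18 (MDA-MB-231) that the differences of dim probesets had. A fall of either gene could not have been seen, and their differences carry no information on induction.

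The genes beside them on chromosome 9 were read in their RefSeq order. IFNA1, IFNE, MTAP, CDKN2A, the antisense transcript gene CDKN2B-AS1, CDKN2B, DMRTA1 and ELAVL2, which follow each other among the genes listed, all had mean signals under the cutoff. MTAP, a housekeeping enzyme of the methionine salvage pathway and the next listed gene to CDKN2A, lay between 3.34 and 3.83 on the 4 arrays, and CDKN2B-AS1 between 3.59 and 3.68. Further out on the side of MTAP, KLHL9 had a mean of 4.89 (4.13 to 5.63), IFNB1 of 2.80, FOCAD of 4.08 (3.87 to 4.26) and MLLT3 of 5.78 (4.46 to 7.26). IFNA1, IFNB1 and the neuronal gene ELAVL2 are not usually expressed in epithelial cells. Gene copy number and DNA methylation were not measured, and why the genes under the cutoff gave no signal was not tested.

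RB1 stood at 11.62 and 11.83 in control and induced SUM159 cells and at 12.29 and 12.46 in MDA-MB-231. It was higher after induction in both lines, by 0.21 and 0.17, and both MDA-MB-231 arrays were above both SUM159 arrays. Of kept genes, 41.4% and 42.6% differed at least as far after induction, and 38.8% at least as far between the control arrays of the lines. After quantile normalization the SUM159 difference was 0.11.

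Over both lines, all 8 kept members had differences of the same sign in SUM159 and MDA-MB-231, 5 of them higher and 3 of them lower. Over all kept genes, 48.9% had the same sign in both lines, 25.2% upward and 23.7% downward. The count was 8 of 8 after quantile normalization and after centring as well. The median difference of the 8 in SUM159 was 0.18 and in MDA-MB-231 it was 0.04, against 0.00 and 0.01 over all kept genes. Their median absolute difference was 0.21 and 0.23, against 0.17 and 0.14. Several of these signs rest on differences as small as -0.02 and 0.03.

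No member passed the fit across all genes. With limma, using cell line as a block, CCND2 had a mean difference of 0.50 ± 0.12 (SE, 2 lines; limma adjusted p = 0.918), and it was the 1 member with an unadjusted p under 0.05. CCND1 had a mean difference of 0.36 ± 0.12 (limma adjusted p = 0.918) and CDK6 of -0.44 ± 0.19 (limma adjusted p = 0.918). The other 5 had limma adjusted p-values from 0.918 to 0.925. Of 14418 kept genes, 0 (0.00%) passed an adjusted p of 0.05 by limma and 3.86% had an unadjusted p under 0.05. The fit has 1 residual degree of freedom, which is the gap between the responses of SUM159 and MDA-MB-231 rather than a spread of replicate cultures. The eBayes step then draws each gene's error towards a value pooled over all kept genes. The responses of RB1, for example, were 0.04 apart, and the error of its mean difference was 0.12.

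Genes next to this checkpoint were described by lists drawn from general knowledge of the pathway. Cyclin E, cyclin A and their kinases had 6 kept members, whose median SUM159 difference was 0.24 and median MDA-MB-231 difference 0.16; values below are given in that order. CDK1, the mitotic kinase, stood at 8.04 and 8.76 in SUM159 and at 10.28 and 10.67 in MDA-MB-231. Its SUM159 difference of 0.72 was the 1 past 1.5-fold, which 6.95% of all kept genes passed either way in that line. CCNA2 (cyclin A2) differed by 0.53 in each line. CCNE1 (cyclin E1) differed by 0.37 and 0.03, and CDC25A, the phosphatase that activates CDK2, by -0.20 and -0.41. Among the remaining inhibitor genes, CDKN1C differed by 0.03 and 0.08 and CDKN2D by 0.10 and -0.07.

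The pocket protein, E2F and DP genes had 12 kept members with medians of 0.06 and -0.01. Past 1.5-fold, E2F5 was at 0.89 and E2F7, a repressor among the E2Fs, at 0.65 in SUM159, and RBL1 at 0.61 in MDA-MB-231. Over all kept genes, 6.95% were past it either way in SUM159 and 2.48% in MDA-MB-231. RBL1 encodes the RB1 relative p107, and it stood at 10.04 and 9.46 in control and induced SUM159 cells against 12.35 and 12.96 in MDA-MB-231. E2F1, the activator most closely tied to RB1, differed by -0.50 and -0.21. All 3 genes of the CDK-activating kinase had positive differences in both lines, as had 25.2% of all kept genes. CDK7 was at 0.73 and 0.05, MNAT1 at 0.01 and 0.52, and CCNH at 0.15 and 0.12, so that some of these signs rest on values near 0.

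E2F target genes, which lie downstream of the checkpoint, had 20 kept members with medians of 0.06 and -0.16. E2F1, CCNE1 and CCNE2 are in this list as well as in those above. In SUM159 CDT1 was past 1.5-fold higher at 0.77 and CDC6 past it lower at -1.08, where 6.95% of all kept genes were past it either way. Both genes encode factors that license replication origins. In MDA-MB-231 0 of the 20 were past 1.5-fold, against 2.48% of all kept genes, with CDT1 at -0.43 and CDC6 at -0.23. RRM2, a ribonucleotide reductase subunit gene, differed by 0.41 and 0.12. Of the 20, 3 had positive and 6 had negative differences in both lines, against 25.2% and 23.7% of all kept genes.

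Genes for the turnover of D cyclins and CIP/KIP proteins had 13 kept members with medians of 0.00 and 0.01, and 2 of them were past 1.5-fold lower in SUM159 (6.95% of all kept genes were past it either way). FBXO4, which encodes an F-box protein reported to target cyclin D1, was at -0.72 and -0.15. GSK3B, the gene of the kinase that marks cyclin D1 for export and degradation, stood at 12.16 and 11.52 in SUM159 and at 11.15 and 10.86 in MDA-MB-231, with differences of -0.64 and -0.29. CKS1B, the cofactor gene for p27 degradation, differed by -0.22 and -0.35, and USP2, whose product removes ubiquitin from cyclin D1, by 0.51 and 0.02. In MDA-MB-231 USP2 lay at 4.26 and 4.28, near the cutoff. These are transcript signals, and protein stability was not measured.

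Among p53 target genes other than CDKN1A, 17 kept members had medians of 0.02 and 0.01, with 2 past 1.5-fold higher and 1 lower in SUM159, where 6.95% of all kept genes were past it either way. FAS differed by 0.93 and 0.47, CCNG1 by 0.83 and 0.01, XPC by -0.60 and 0.08, and BAX by 0.11 and -0.43. Transcriptional regulators that act upstream of the checkpoint had 21 kept members with medians of -0.03 and 0.03. Of these, 3 were past 1.5-fold higher and 2 lower in SUM159, against 6.95% of all kept genes either way. In MDA-MB-231 0 were, against 2.48% of all kept genes. The AP-1 subunit gene FOSL1 stood at 1.55 and 0.13, TBX3 at 1.23 and -0.10, FOXO1 at -1.07 and -0.04, and FOXM1, a driver of mitotic genes, at -1.02 and -0.24. The signals of TBX3 in MDA-MB-231, 4.46 and 4.36, lay near the cutoff. Of the 94 different kept genes in these lists, 0 passed an adjusted p of 0.05 by limma for induction, as over all kept genes, and 6 (6.38%) had an unadjusted p under 0.05, against 3.86% of all kept genes.

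**Figure D3:**
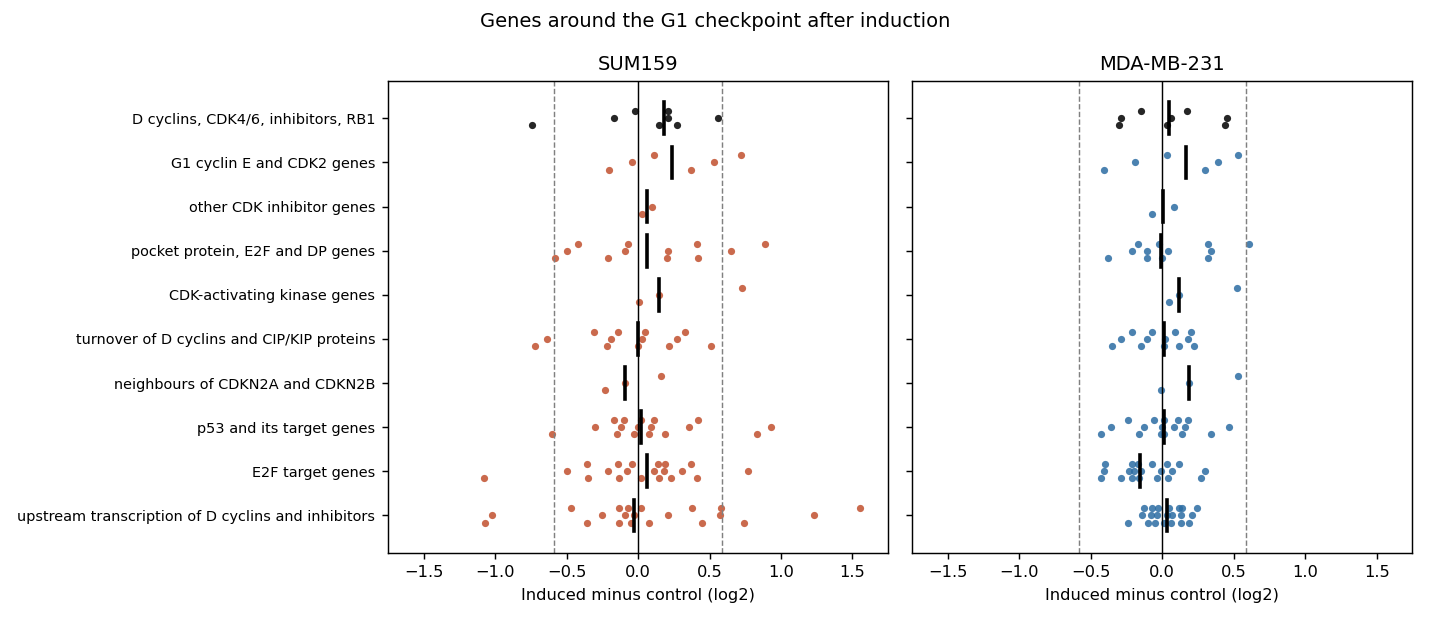
Induced minus control log2 difference in SUM159 (left) and MDA-MB-231 (right) for the kept members of the checkpoint (black) and of 9 lists of related genes (coloured); each point is a gene, the vertical bar is the list median, and dashed lines mark 1.5-fold. The points spread more widely in SUM159, from -1.08 for CDC6 to 1.55 for FOSL1, than in MDA-MB-231, where RBL1 at 0.61 is the point past 1.5-fold.

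The lines themselves differed at the checkpoint, most of all in cyclin D2. With limma, using treatment as a block, 4 of the 8 kept members differed between SUM159 and MDA-MB-231, against 44.6% of all kept genes, so the share of members lay near the background. The arrays of a line are its control and induced states and not replicate cultures. The limma errors and p-values here and below therefore do not measure a spread between cultures of a line. CCND2 was higher in SUM159 by 3.84 on the control arrays and by 3.96 on the induced arrays, that is 14.3 and 15.6 times the MDA-MB-231 level (limma mean difference 3.90 ± 0.12 SE, adjusted p = 0.00169). Of kept genes, 1.91% differed at least as far between the control arrays. CDK4 was higher in SUM159 by 0.54 and 0.81 (limma 0.68 ± 0.13, adjusted p = 0.0279).

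CCND3 was lower in SUM159, with SUM159 minus MDA-MB-231 at -1.05 on the control and -0.92 on the induced arrays (limma -0.98 ± 0.12, adjusted p = 0.00952). Thus CCND2 and CCND3 differed between the lines in opposite directions. RB1 was lower in SUM159, at -0.67 and -0.63 (limma -0.65 ± 0.12, adjusted p = 0.0213). CCND1 stood at -0.29 and -0.47 (limma adjusted p = 0.0838), CDKN1B at -0.27 and -0.18 (limma adjusted p = 0.208) and CDKN1A at -0.04 and 0.14 (limma adjusted p = 0.778). CDK6 was higher in SUM159 by 0.59 before induction and by 0.00 after it (limma adjusted p = 0.297), so the lines met at 7.92.

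**Figure D4:**
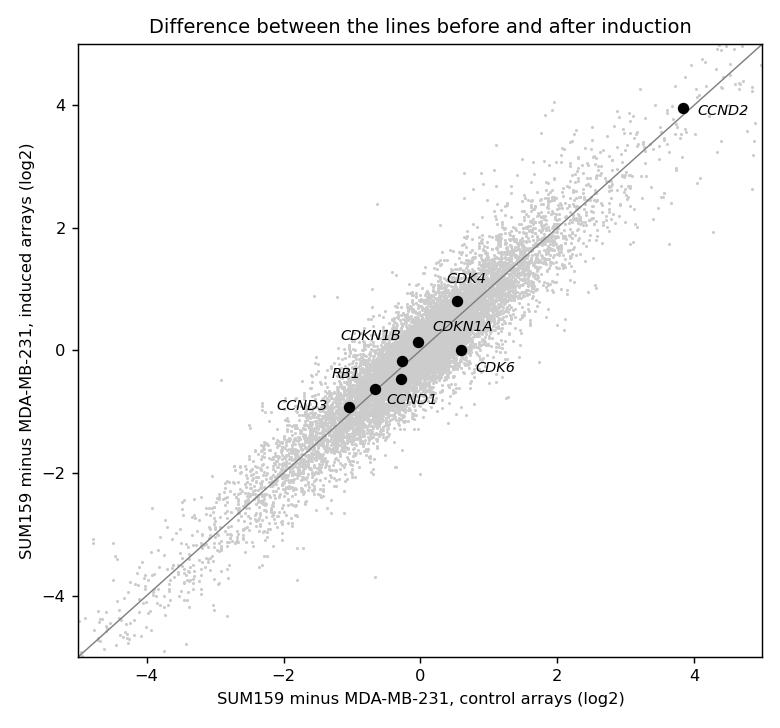
SUM159 minus MDA-MB-231 log2 difference on the control arrays (horizontal) and on the induced arrays (vertical) for all 14418 kept genes (grey) and the 8 kept members (black, named); the diagonal marks equal differences. CCND2 lies at 3.84 and 3.96, far from the other members, and CDK6 lies below the diagonal at 0.59 and 0.00.

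Transcripts of genes downstream of the checkpoint also differed between the lines. The arrays do not measure phosphorylation of the retinoblastoma protein, E2F activity or cell cycle phase, and line and medium go together. Of the 20 kept E2F target genes, 15 were lower in SUM159 by limma and 0 higher, where 23.8% of all kept genes were lower and 20.8% higher. Of the 6 cyclin E, cyclin A and kinase genes 5 were lower, CCNA2 by limma at -1.87 ± 0.11 (adjusted p = 0.00339) and CDK1 at -2.08 ± 0.14 (adjusted p = 0.0039). E2F1 (-1.52 ± 0.14, limma adjusted p = 0.00586), E2F7 (-4.12 ± 0.23, limma adjusted p = 0.00299) and RBL1 (-2.90 ± 0.33, limma adjusted p = 0.00858) were lower in SUM159 as well. In the pocket protein, E2F and DP list as a whole 5 members were lower and 4 higher in SUM159 by limma, the latter being RBL2, which encodes the RB1 relative p130 (2.43 ± 0.12), E2F5 (1.34 ± 0.26), E2F4 (0.92 ± 0.24) and TFDP2 (0.84 ± 0.12), of which RBL2, E2F4 and TFDP2 were named after their values were seen.

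Of the members, 2 varied by at least 1 log2 unit over the arrays, and the genes with the nearest centred values over these 4 arrays were looked up among 11877 kept protein-coding genes. Nearest to CCND2 were CYFIP2 (Euclidean distance 0.26 log2 units), KLF7 (0.32) and GADD45A (0.33). Nearest to CCND3 were KEAP1 (0.04), FILIP1L (0.04) and RTL5 (0.05), of which RTL5 (3.80 to 4.97) and FILIP1L (3.88 to 5.15) lay near the cutoff. With 4 arrays of 2 lines such likeness rests mainly on the difference between the lines.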

How the data were processed

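RNA was measured on Affymetrix arrays, 1 per line and state. It was prepared with Trizol, and 100 ng was labelled with the GeneChip WT kit, per the labels' protocols. The deposited table holds log2 signals, 1 per probeset and array, from 1.54 to 19.86, with array medians of 4.00 to 4.07. The submitters' processing notes name the Affymetrix Expression Console together with the Transcriptome Analysis Console. The summarisation, the normalization and the build are not stated there or in the labels, so a shift shared by most genes of an array could have been removed before deposit.

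No further scaling was applied. The annotation gave 1 symbol to 23781 of 70523 probesets, several to 1543 and none to 45199; only the first were used, and 0 of the others with several symbols name a member. Genes whose mean log2 signal reached 4.035 were kept. Differences within a line rest on 1 array per state and were not tested; those of 1.5-fold or more were counted. limma 3.58.1 (R 4.3.3, lmFit, eBayes) was fitted with line and treatment as terms, with two-sided p-values adjusted by Benjamini-Hochberg over 14418 genes. Data simulated from the same model were used to check the estimated differences, which does not show that the model's assumptions hold here. The p-values of limma measure only the spread left among these arrays, drawn towards a value pooled over all kept genes. The number of arrays limits the precision.

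The members and lists were chosen with earlier results of these data known. Named are all members, the list members with the largest differences (up to 4 per list), all measured neighbours of CDKN2A, and MIR100. The alternatives were other scalings, cutoffs, probeset rules, gene sets, fold thresholds, blocks and variance priors. List genes without a probeset of their own are not analysed here.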

Additional observations from a re-analysis of the deposited data

Results flagged for a closer look

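No group holds more than 1 array, so no array could be set against its own group. In 8 genes near the checkpoint, the differences after induction had opposite signs in SUM159 and MDA-MB-231. They were named as the list members with the largest differences or as neighbours of CDKN2A. CDKN2D was among them only because its list had 2 kept members, and it differed by 0.10 and -0.07. The mean signals of these 8 reached the cutoff. In 1 line, however, TBX3 (4.46 and 4.36 in MDA-MB-231) and MLLT3 (4.69 and 4.46 in SUM159) lay near it. The sign of their difference in that line is therefore not informative. Opposite signs are common, as only 48.9% of all kept genes had the same sign in both lines. E2F4, named above after its values were seen, also had them (0.41 in SUM159 and -0.38 in MDA-MB-231). None of these contrasts between the lines was tested. No kept member had opposite signs. The SUM159 difference minus the MDA-MB-231 difference, in log2 units, was 1.33 for TBX3, 1.20 for CDT1, 0.76 for E2F7, 0.54 for BAX and 0.17 for CDKN2D. It was -1.19 for RBL1, -0.76 for MLLT3 and -0.68 for XPC. RBL1 was the gene of these that passed 0.5 log2 units in both lines, with -0.58 in SUM159 against 0.61 in MDA-MB-231.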

How the results depend on the processing

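The within-line differences of the 8 kept members moved by less than the spread of genes of like signal in all 96 combinations of member, line and alternative. Only quantile normalization and centring could move them at all. Each member has 1 probeset, and the other alternatives change only which genes are kept, so their differences were identical by construction. In limma for induction, 0 members and 0 genes were called under each alternative, and the 4 members called between the lines were called in each direction as before under each. With 2-fold in place of 1.5-fold, 0 members were lower in SUM159, where 105 genes of all were higher and 84 were lower; the MDA-MB-231 counts were 15 and 6, and between the control arrays 1 member was higher and 1 lower. After quantile normalization 1 member was past 1.5-fold lower in SUM159 than in MDA-MB-231 on the control arrays, in place of 2, and 3 were higher. The genes past 1.5-fold lower in MDA-MB-231, 113 in all, were 58 when protein-coding genes alone were kept and 69 with a 75th percentile cutoff. Protein-coding genes were 11885 of the 14418 kept, so with them the count fell by a larger share than the number of genes tested. In all genes of SUM159 the split of 570 higher and 432 lower became 471 and 515 after quantile normalization. Between the lines, CDKN1A had a mean of 0.05 and stood at -0.04 on the control arrays. The fit for induction pairs the arrays by line; without that block 0 genes were called too. Leaving out an array leaves limma with no residual. The unknown summarisation and the single array per state limit what small differences can show.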
